A study of Homo sapiens with 6 samples.

Results

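The human mitochondrial chromosome carries 37 genes, and all 37 were present among the 58735 genes of the deposited expression table, chosen here as every gene that the table places on chromosome MT. They were 13 mRNAs, 2 rRNAs and 22 tRNAs. Their positions are those of the table, which equal GENCODE 29 on GRCh38 for all 37. Transcripts of 28 genes read along the plus strand of the reference and those of 9 genes (MT-ND6 and 8 tRNAs) along the minus strand. Gene expression had been measured by RNA sequencing in SW480, an established line of human colorectal adenocarcinoma cells grown in Leibovitz's L-15 medium with fetal bovine serum. The study set out to find genes that differ when DDX39B, an RNA helicase of nuclear mRNA splicing and export, is overexpressed. Its 3 libraries of the first group were labelled with the genotype DDX39B overexpression and its 3 libraries of the second group were titled as control with the genotype WT. No other allele or agent is named for either group. How DDX39B was introduced, whether the line was 1 clone and whether the libraries came from separate cultures is not given in the sources used here, so the p-values below measure only the spread between these libraries, which may be technical.

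DDX39B itself and several markers of the cell type went against the labels, which bears on every comparison that follows. DDX39B stood at 15, 13.9 and 14 FPKM (fragments scaled for gene length and library size) in the libraries labelled overexpression, against 39.3, 34.6 and 41.9 FPKM in those labelled control. It was thus 2.7-fold lower where it was labelled as overexpressed (limma adjusted p = 6.93e-06, log2 fold change -1.37, SE 0.0792, lower in 3 of 3 libraries). For this reason the text speaks of overexpression-labelled and control-labelled libraries, and each direction is that of the labels. Of 11 markers of epithelium and colon, 7 reached a mean of 1 FPKM, and the summed level of the 11 was 1972 to 1996 FPKM in the overexpression-labelled against 357.7 to 430.3 FPKM in the control-labelled libraries. EPCAM, an adhesion molecule of epithelial cells, stood at 168 to 175 FPKM in the former and 2.28 to 3.49 FPKM in the latter. KRT19, a keratin of simple epithelia, stood at 495 to 509 against 0.127 to 0.499 FPKM, and CDX2, an intestinal transcription factor, had 0 reads in all 3 control-labelled libraries. EPCAM, KRT19 and CDX2 were therefore low or at 0 in the control-labelled group, although KRT8 (171 to 189 FPKM) and KRT18 (176 to 236 FPKM) were present there. KRT20, a keratin of intestinal epithelium, went the other way at low levels (0.123, 0.06 and 0 against 0.532, 0.835 and 1.23 FPKM). CDX1 had 0 reads in every library, and CEACAM5 and LGALS4 stayed at or below 0.172 FPKM in both groups. None of 9 leukocyte markers reached a mean of 1 FPKM (sums of 1.269 to 2.034 against 0.1592 to 0.7137 FPKM, CD3D and MS4A1 at 0 reads). Of 8 fibroblast markers only COL1A1 did (sums of 1.536 to 1.671 against 4.368 to 8.279 FPKM, PDGFRA at 0 reads), and of 7 endothelial markers only ESAM (sums of 1.064 to 1.484 against 35.96 to 50.58 FPKM, KDR at 0 reads). The part of these differences in the mitochondrial values was not tested.

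Each library held 16963075 to 17463697 reads over all genes, as worked out from FPKM and gene length, so depth differed little. The libraries stood apart by group across the whole table: 76.8% of the 13972 genes tested were called at an adjusted p under 0.05, 37.5% as higher and 39.3% as lower in the overexpression-labelled group, with a median log2 fold change of -0.029. For 80.1% of the tested genes the ranges of the groups lay apart without overlap. A mitochondrial gene that differs between the groups is therefore like most genes of these libraries, and the counts of calls below are to be read against those shares.

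Mitochondrial DNA is transcribed from both strands as long precursors that span many genes. In this arrangement, often called tRNA punctuation, tRNAs lie between most rRNAs and mRNAs, and their excision by RNase P and ELAC2 releases the neighbours. Most of the mRNAs then receive short poly(A) tails from the mitochondrial polymerase MTPAP, and genes of the same precursor can reach very different steady levels because their RNAs are stabilised and degraded separately. All proteins encoded by this genome are subunits of respiratory complexes I, III, IV and V, and they are made by a mitochondrial ribosome built on the 2 rRNAs.

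Mitochondrial genes gave 6.226, 6.081 and 5.999% of all reads in the overexpression-labelled libraries and 4.497, 5.02 and 4.262% in the control-labelled libraries. The groups did not overlap, but the classes moved in opposite directions. The 13 mRNAs held 5.818, 5.696 and 5.62% of all reads under the overexpression label and 3.48, 4.118 and 3.168% under the control label. For the 2 rRNAs the order was turned, with 0.379, 0.3587 and 0.3521% against 0.9819, 0.8664 and 1.059%. The 22 tRNAs were a very small part in every library, with 0.02877, 0.02554 and 0.02682% against 0.03525, 0.03577 and 0.03537%.

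**Figure D1:**
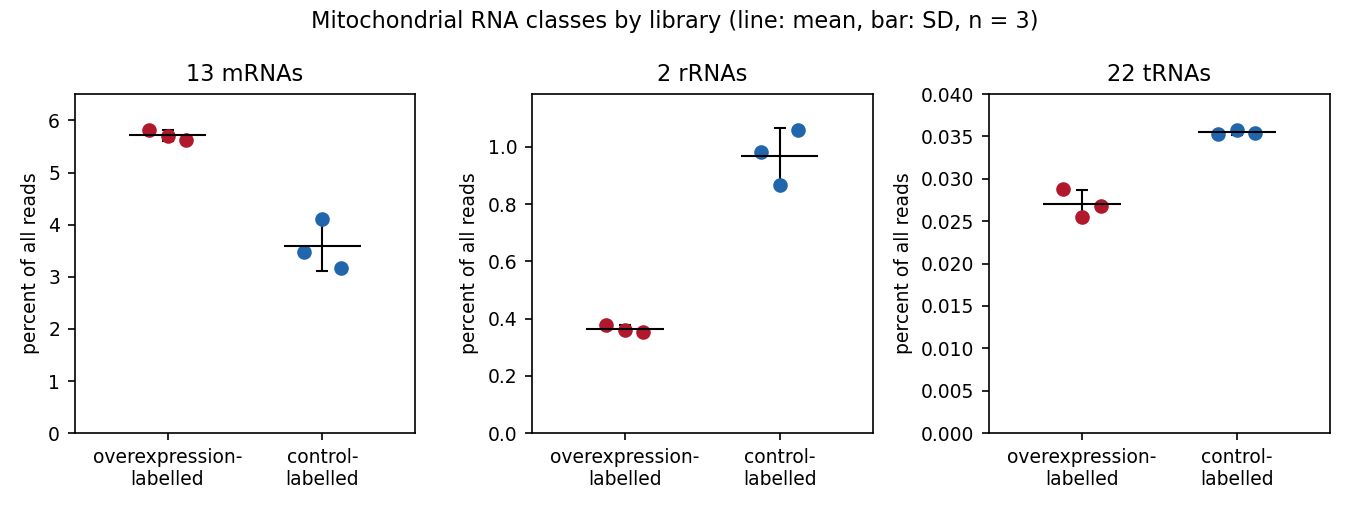
Percent of all reads from mitochondrial mRNAs, rRNAs and tRNAs in each library, with a separate axis for each class that starts at 0. Points are libraries, lines are means and bars are SDs (n = 3 per group). The mRNA share is higher and the rRNA and tRNA shares are lower in all 3 overexpression-labelled libraries than in any control-labelled library.

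Among mitochondrial reads alone, mRNAs took 93.6% ± 0.134 (SD, n = 3) under the overexpression label and 77.91% ± 3.877 (SD, n = 3) under the control label. The rRNAs took 5.952% ± 0.1185 and 21.31% ± 3.818 (SD, n = 3 each). Reads of rRNA per read of mRNA came to 0.06514, 0.06298 and 0.06265 against 0.2822, 0.2104 and 0.3342. The control-labelled libraries also differed from each other. Their replicate 2 had the highest mRNA and the lowest rRNA share of the 3, and their replicate 3 the lowest mRNA and the highest rRNA share. In bulk samples a share cannot tell more mitochondrial RNA per cell from less of other RNA, nor a change in each cell from a change in which cells were present. Per the labels' protocols the library kit was one for mRNA, and how far it takes up rRNA and tRNA was not tested.

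Of the 13 mRNAs, 8 rose in the overexpression-labelled group, none fell and 5 did not pass the test (limma, adjusted p under 0.05; 37.5% of all tested genes were called higher), and their median log2 fold change was 0.65. The count of higher mRNAs depended on the scaling: 12 of 13 rose when FPKM were recomputed on the sum of reads, which also moved the median log2 fold change of all genes from -0.029 to 0.067, and quantile normalization gave 9 higher and 4 lower (MT-CO1, MT-ND4, MT-ND4L and MT-ND1). Of the 14009 genes tested on the sum of reads, 5816 were called higher and 4965 lower. Quantile normalization gave 5290 higher and 5496 lower of 13972. The statements on single genes below hold for the deposited scale. The ends of 8 of them are shown first, because they differ in how translation stops: the 4 with the largest increases, then 4 that did not pass the test. Each run is the last 30 bases of the coding sequence, 5′ to 3′ in the direction of the transcript, from the GENCODE 29 transcripts on GRCh38, with the stop codon, or the part of it that the DNA encodes, in capitals.
MT-CYB (MT:15858-15887, plus strand): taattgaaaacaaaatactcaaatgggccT
MT-ND3 (MT:10375-10404, plus strand): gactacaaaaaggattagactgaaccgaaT
MT-CO3 (MT:9961-9990, plus strand): tgtatgtctccatctattgatgagggtctT
MT-ATP6 (MT:9178-9207, plus strand): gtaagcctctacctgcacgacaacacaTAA
MT-CO1 (MT:7416-7445, plus strand): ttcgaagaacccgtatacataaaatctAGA
MT-ND4 (MT:12108-12137, plus strand): accccgacatcattaccgggttttcctctT
MT-ND5 (MT:14119-14148, plus strand): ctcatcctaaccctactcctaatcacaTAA
MT-ND6 (MT:14149-14178, minus strand): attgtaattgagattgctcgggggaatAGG
Where only a T or TA is encoded, the poly(A) tail completes the stop codon. This holds for 6 of the 13 mRNAs (MT-ND1, MT-ND2, MT-CO3, MT-ND3, MT-ND4 and MT-CYB), whose log2 fold changes had a median of 1.16 and ran from 0.16 to 1.75. The other 7 have a complete stop codon, and their log2 fold changes had a median of 0.24 and ran from 0.064 to 1.14. The ranges overlapped, and MT-ND4, whose stop is completed by the tail, was among the least changed.

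MT-CYB (MT:14747-15887), cytochrome b and the only mitochondrially encoded subunit of complex III, showed the largest increase of the mRNAs together with MT-ND3. It stood at 4287, 4037 and 4215 FPKM under the overexpression label and 1259, 1542 and 990.3 FPKM under the control label. The groups were far apart, and the ratio of means was 3.31 (log2 fold change 1.75, SE 0.153, limma adjusted p = 5.24e-05).

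Complex I, the NADH dehydrogenase, has 7 subunits in this genome, and they did not move together. MT-ND3 (MT:10059-10404), a small membrane subunit, stood at 5495, 4657 and 4508 FPKM under the overexpression label and 1476, 1618 and 1299 FPKM under the control label, a ratio of 3.34 (log2 fold change 1.74, SE 0.11, limma adjusted p = 1.06e-05). MT-ND2 stood at 3253, 3129 and 3183 against 1767, 1969 and 1688 FPKM, 1.76-fold higher with no overlap (log2 fold change 0.82, limma adjusted p = 4.63e-05). MT-ND1, a membrane subunit near the quinone site, was 1.26-fold higher, with 2836, 2665 and 2813 against 2202, 2276 and 2145 FPKM (log2 fold change 0.33, limma adjusted p = 0.00132). The other 4 did not pass the test. MT-ND4, a proton-pumping subunit, stood at 4999, 4939 and 5214 FPKM against 4453, 5041 and 4094 FPKM, so that control-labelled replicate 2 lay within the range of the other group. MT-ND5, also of the pumping arm, had 1165, 1050 and 1035 against 922.1, 1037 and 871.4 FPKM, again with overlap through that library. Without control-labelled replicate 2 their log2 fold changes were 0.24 and 0.27 (limma adjusted p = 0.02 and 0.0157), past the threshold, against 0.16 and 0.20 with all libraries (limma adjusted p = 0.126 and 0.0629).
MT-ND4L, which shares its last 7 bases with the start of MT-ND4 (MT:10760-10766), stood at 5064, 4026 and 4622 against 3816, 4221 and 3552 FPKM (log2 fold change 0.24, 95% interval -0.014 to 0.49, limma adjusted p = 0.076). MT-ND6, the only mRNA of the minus strand, stood at 1552, 1475 and 1476 against 1342, 1442 and 1362 FPKM. Its groups did not overlap, yet the difference was small and did not pass the test (log2 fold change 0.12, 95% interval -0.0099 to 0.25, limma adjusted p = 0.0813). Without control-labelled replicate 2 these 2 genes passed as well, at log2 fold changes of 0.31 and 0.15 (limma adjusted p = 0.0454 and 0.0441). MT-ND4L also passed without overexpression-labelled replicate 2 (log2 fold change 0.33, limma adjusted p = 0.0349).

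**Figure D2:**
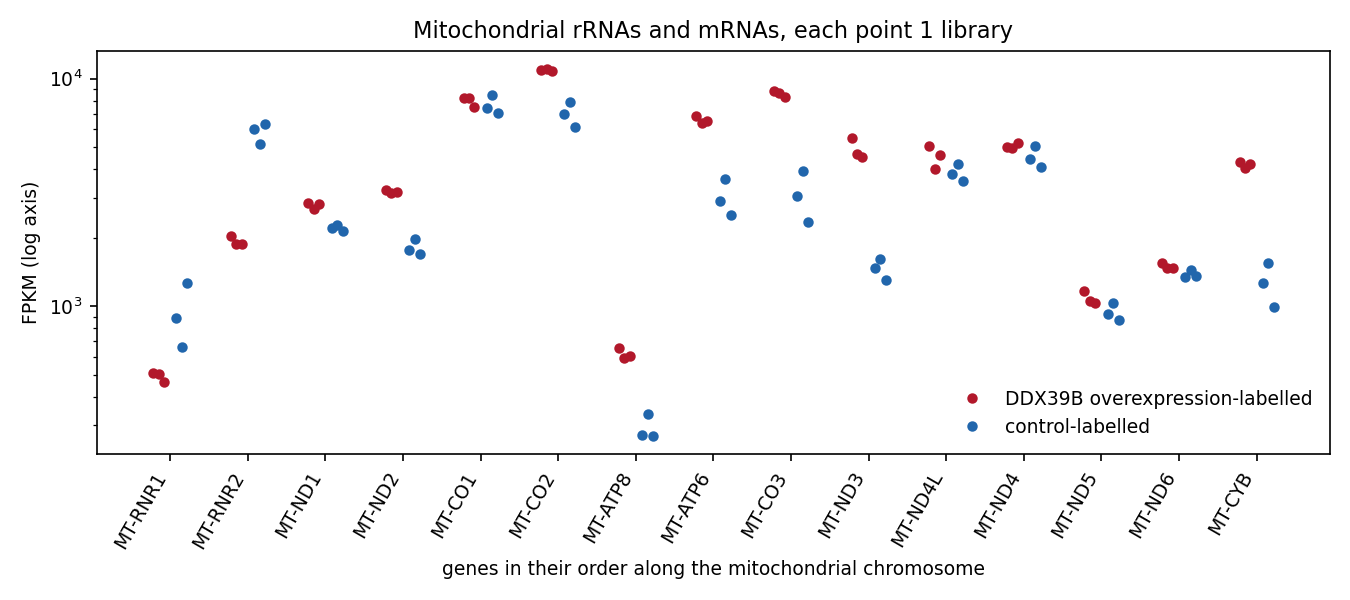
FPKM of the 2 rRNAs and 13 mRNAs on a log axis, in their order along the mitochondrial chromosome, each point being 1 library. The colours separate widely at MT-RNR2, MT-CO3, MT-ND3 and MT-CYB and lie on each other at MT-CO1 and MT-ND4.

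Complex IV, cytochrome c oxidase, has its 3 core subunits here, and they also responded unequally. MT-CO1 (MT:5904-7445), the subunit that holds the site of oxygen reduction, stood at 8208, 8201 and 7522 FPKM under the overexpression label and 7431, 8453 and 7055 FPKM under the control label. These ranges overlapped, and no difference was called (log2 fold change 0.064, 95% interval -0.14 to 0.27, limma adjusted p = 0.515). MT-CO2 (MT:7586-8269), which receives electrons from cytochrome c, was 1.56-fold higher, with 10890, 11024 and 10763 against 7004, 7862 and 6129 FPKM (log2 fold change 0.65, SE 0.0965, limma adjusted p = 0.000791). MT-CO3 (MT:9207-9990) was 2.76-fold higher, with 8833, 8675 and 8270 against 3063, 3925 and 2345 FPKM (log2 fold change 1.50, SE 0.176, limma adjusted p = 0.000239). Within a library, MT-CO3 was 1.076, 1.058 and 1.099 times MT-CO1 in the overexpression-labelled group but 0.4123, 0.4643 and 0.3324 times MT-CO1 in the control-labelled group. MT-CO2 changed rank as well, from 1.327, 1.344 and 1.431 times MT-CO1 to 0.9425, 0.9301 and 0.8687 times.

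Complex V, the ATP synthase, has its 2 mitochondrially encoded subunits on a shared transcript with overlapping frames. The overlap is shown because reads within it belong to both genes: it is 46 bases long, and the start codon of MT-ATP6 and the stop codon of MT-ATP8 are in capitals.
MT-ATP8 and MT-ATP6 overlap (MT:8527-8572, plus strand): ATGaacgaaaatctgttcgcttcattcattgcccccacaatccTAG
MT-ATP6, a part of the proton channel, stood at 6824, 6357 and 6527 FPKM under the overexpression label and 2885, 3608 and 2523 FPKM under the control label, a ratio of 2.19 (log2 fold change 1.14, limma adjusted p = 0.000195). MT-ATP8, a small membrane subunit of the same complex, stood at 656.1, 591.8 and 603 against 272.4, 334.3 and 269.9 FPKM, a ratio of 2.11 (log2 fold change 1.08, limma adjusted p = 5.52e-05). These neighbours kept their proportion: MT-ATP6 was 10.4, 10.74 and 10.82 times MT-ATP8 in FPKM against 10.59, 10.79 and 9.348 times, and the groups overlapped. How the authors' counting dealt with reads in the overlap is not given in the sources used here, so the level of MT-ATP8, a gene of 207 bases, is uncertain.

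The order of the levels per length differed between the groups. In the overexpression-labelled libraries MT-CO2 was highest, followed by MT-CO3, MT-CO1 and MT-ATP6, each with a range that did not touch the next. MT-ND4, MT-ND3, MT-ND4L and MT-CYB came next, and each of them overlapped its neighbour. In the control-labelled libraries MT-CO1, MT-CO2 and MT-RNR2 led with overlapping ranges, and MT-ND4, MT-ND4L, MT-CO3 and MT-ATP6 formed a second overlapping series. MT-ND3 and MT-CYB were there at the level of MT-ND6 and MT-ND5. MT-ATP8 was the lowest of the mRNAs in both groups.

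A scaling of the libraries shared by all genes cannot produce differences within the mitochondrial mRNAs, so each library was also rescaled to the same number of mitochondrial mRNA reads. After rescaling, 6 of the 13 mRNAs were higher, 6 were lower and 1 did not pass the test, while 19.4% of the 14040 genes tested in this way were called higher and 57.8% lower, with a median log2 fold change of -0.52 (77.2% in either direction). A rise of some members here implies a fall of others, since the total is held fixed. Those higher were MT-CYB (log2 fold change 1.18), MT-ND3 (1.17), MT-CO3 (0.93), MT-ATP6 (0.57), MT-ATP8 (0.51) and MT-ND2 (0.25), with limma adjusted p of 1.78e-05 to 0.0167. Lower were MT-CO1 (-0.51), MT-ND6 (-0.45), MT-ND4 (-0.41), MT-ND5 (-0.37), MT-ND4L (-0.33) and MT-ND1 (-0.24), with limma adjusted p of 0.000546 to 0.0394. MT-CO2 was not called (0.074, 95% interval -0.095 to 0.24, limma adjusted p = 0.368). The calls of MT-ND1 and MT-ND2 were the weakest, and each was lost when any overexpression-labelled library was left out.

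**Figure D3:**
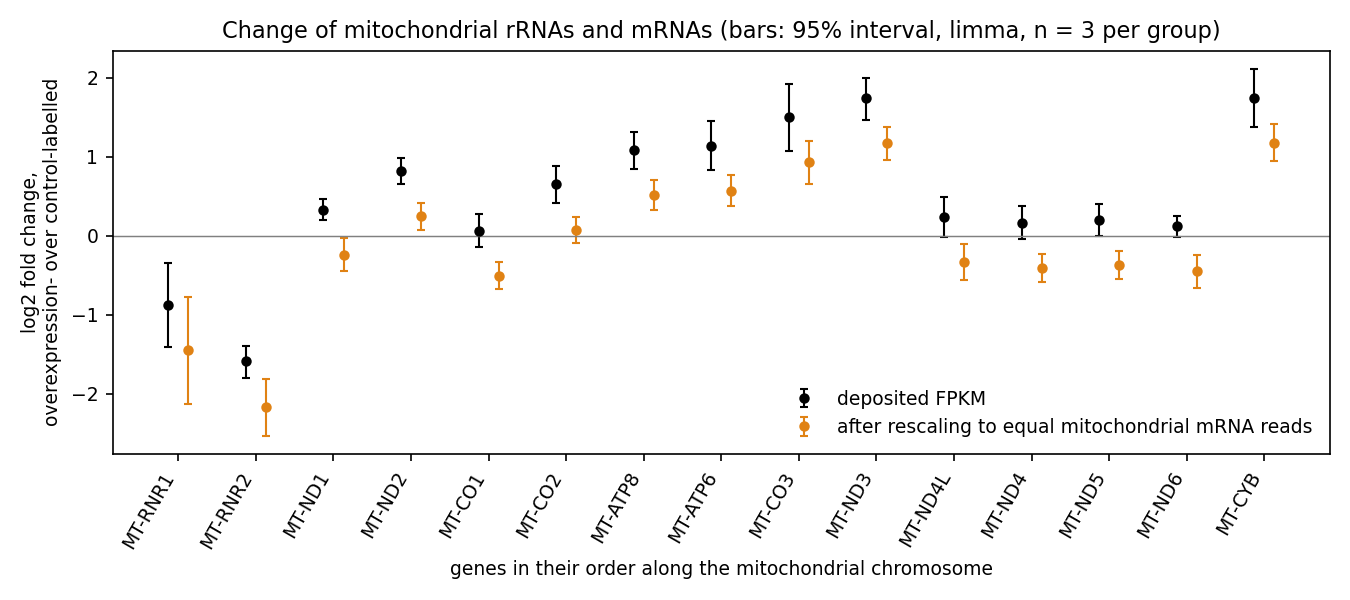
Log2 fold change of the 2 rRNAs and 13 mRNAs, overexpression-labelled over control-labelled, in chromosome order, with 95% intervals from limma (n = 3 per group). Black points use the deposited FPKM and orange points the libraries rescaled to equal mitochondrial mRNA reads; the rescaling lowers every gene by a similar amount, and both rRNAs lie below 0 on either scale.

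In reads, MT-CO1 made up 22.53% ± 0.8588 of the mitochondrial mRNA reads under the overexpression label and 32.01% ± 0.7768 under the control label (SD, n = 3 each). MT-CYB made up 8.737% ± 0.2323 against 3.878% ± 0.4232, and MT-CO3 12.34% ± 0.2325 against 6.542% ± 0.9388 (SD, n = 3 each). MT-ND4 went the other way, with 12.76% ± 0.5777 against 16.93% ± 0.1426 (SD, n = 3 each). By complex, the 7 subunits of complex I together held 34.49, 33.43 and 35.03% against 38.95, 37.74 and 40.07%, and the 3 of complex IV 48.25, 49.84 and 47.47% against 51.5, 51.91 and 51.14%. Complexes III and V gained what these lost, and no complex overlapped between the groups.

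**Figure D4:**
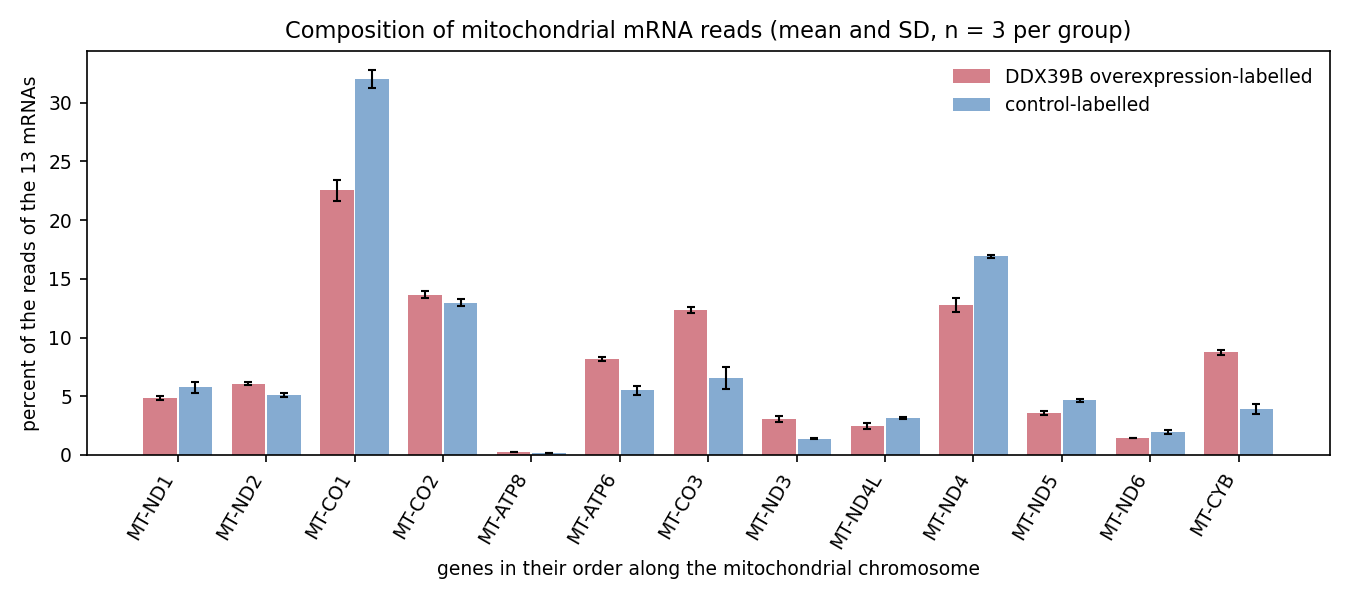
Percent of the reads of the 13 mitochondrial mRNAs that belong to each, as mean and SD over 3 libraries per group, in chromosome order. MT-CO1 and MT-ND4 take a smaller part, and MT-ATP6, MT-CO3, MT-ND3 and MT-CYB a larger part, in the overexpression-labelled libraries.

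Position along the chromosome did not order the changes. The 4 neighbours MT-ATP8, MT-ATP6, MT-CO3 and MT-ND3 all rose, with log2 fold changes of 1.08 to 1.74, while the next 4, MT-ND4L, MT-ND4, MT-ND5 and MT-ND6, had log2 fold changes of 0.12 to 0.24 and were not called. MT-CYB, downstream of them on the plus strand, rose again by 1.75. Over the 13 mRNAs the Spearman correlation of the log2 fold change was 0.03 with the start position, -0.32 with gene length, 0.01 with GC content and -0.35 with the mean control-labelled level. Over the 12 plus-strand mRNAs it was 0.17 with the start position. These are descriptions, since all points share the same 6 libraries. Some neighbours kept their ratio: MT-ND5 was 0.233, 0.2126 and 0.1985 times MT-ND4 against 0.2071, 0.2057 and 0.2128 times, with overlap. Other neighbours did not, as MT-CYB was 2.761, 2.737 and 2.856 times MT-ND6 against 0.9381, 1.069 and 0.7273 times. That change lay mostly in MT-CYB. A contrast of strands was not tested, since MT-ND6 is the only mRNA of the minus strand. Minus-strand MT-ND6 (0.12) moved as little as plus-strand MT-ND4 (0.16) and MT-ND5 (0.20).

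The 2 rRNAs, which form the small and large subunits of the mitochondrial ribosome, both fell in the overexpression-labelled group (39.3% of all tested genes were called lower). The large-subunit rRNA MT-RNR2 (MT:1671-3229) stood at 2029, 1879 and 1871 FPKM under the overexpression label and 6011, 5184 and 6310 FPKM under the control label. It was 3.03-fold lower, with a wide gap between the groups (limma adjusted p = 5.25e-06, log2 fold change -1.59, SE 0.087). The small-subunit rRNA MT-RNR1 (MT:648-1601) stood at 510.2, 503.8 and 462.8 against 888.5, 658.6 and 1270 FPKM. It was 1.91-fold lower (limma adjusted p = 0.00935, log2 fold change -0.88, SE 0.221), and the control-labelled libraries spread widely, with a coefficient of variation of 32.9% against 5.22%. The rRNAs lie next to each other on the plus strand, separated only by MT-TV, and they were not in a fixed ratio: MT-RNR2 was 3.977, 3.729 and 4.041 times MT-RNR1 in FPKM against 6.765, 7.871 and 4.97 times. Relative to the mitochondrial mRNA total the log2 fold changes were -2.17 for MT-RNR2 and -1.45 for MT-RNR1 (limma adjusted p = 1.26e-05 and 0.00254).

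The tRNAs were measured with few reads. A gene of 70 bases gained 0.791 to 0.876 FPKM from 1 read, so reads are given here in place of FPKM. Together the 22 tRNAs had 4885, 4386 and 4569 reads under the overexpression label and 5979, 6069 and 6177 reads under the control label. Most came from 5 genes, MT-TC, MT-TN, MT-TP, MT-TY and MT-TL1, which held 92.38, 91.66 and 91.05% of the tRNA reads against 97.47, 97.48 and 98.2%. The other 17 shared 372, 366 and 409 reads against 151, 153 and 111 reads. Sequences of the 5 and of MT-TH, the most abundant of those that rose, follow as the DNA of the transcribed tRNA from the GENCODE 29 transcripts (GRCh38), 5′ to 3′. The base at which MT-TC and MT-TY overlap is in capitals in both.
MT-TC (cysteine, MT:5761-5826, minus strand): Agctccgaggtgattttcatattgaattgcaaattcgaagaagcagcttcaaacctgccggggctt
MT-TN (asparagine, MT:5657-5729, minus strand): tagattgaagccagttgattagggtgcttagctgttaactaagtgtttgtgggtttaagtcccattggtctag
MT-TP (proline, MT:15956-16023, minus strand): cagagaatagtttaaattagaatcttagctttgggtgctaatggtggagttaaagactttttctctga
MT-TY (tyrosine, MT:5826-5891, minus strand): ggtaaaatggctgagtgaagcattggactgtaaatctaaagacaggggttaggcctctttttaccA
MT-TL1 (leucine, MT:3230-3304, plus strand): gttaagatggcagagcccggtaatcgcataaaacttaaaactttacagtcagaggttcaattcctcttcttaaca
MT-TH (histidine, MT:12138-12206, plus strand): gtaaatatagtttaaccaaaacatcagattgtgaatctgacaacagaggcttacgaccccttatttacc
The CCA end that charges a tRNA with its amino acid is added after transcription, and 21 of the 22 genes do not end in these letters. MT-TC, MT-TN and MT-TY lie in a single minus-strand cluster with 31 bases between MT-TN and MT-TC. MT-TA, 1 base from MT-TN, belongs to the same cluster but had only 0 to 3 reads per library. MT-TP lies at the far end of the chromosome, 2 bases from MT-TT of the plus strand.

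Of 21 tRNA genes tested (MT-TW, with 0 to 3 reads per library, was below the filter), 11 rose, 6 fell and 4 did not pass the test. Among all tested genes 76.8% were called, 37.5% as higher and 39.3% as lower. Among those with a mean under 40 reads 59.5% were called, but the abundant tRNAs had more reads than that. The 4 abundant minus-strand tRNAs all fell on the deposited scale, and under quantile normalization MT-TP was no longer called (log2 fold change -0.13, limma adjusted p = 0.259). MT-TC had 1972, 1667 and 1660 reads under the overexpression label and 2498, 2578 and 2733 reads under the control label (1.58-fold lower in FPKM, log2 fold change -0.66, limma adjusted p = 0.000419). MT-TN had 1453, 1267 and 1397 against 1957, 1784 and 1836 reads (1.45-fold lower, log2 fold change -0.54, limma adjusted p = 0.00081). MT-TP had 684, 676 and 627 against 892, 1021 and 901 reads (1.52-fold lower, log2 fold change -0.60, limma adjusted p = 0.000182). In none of these 3 did the groups overlap. MT-TY had 250, 248 and 269 against 286, 308 and 332 reads and was 1.29-fold lower (log2 fold change -0.37, limma adjusted p = 0.00171).

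On the plus strand, MT-TL1, which follows the rRNA genes directly, had 154, 162 and 207 reads under the overexpression label and 195, 225 and 264 under the control label. Its read counts overlapped while its FPKM did not, and it was 1.4-fold lower in FPKM (log2 fold change -0.49, limma adjusted p = 0.0173). Without overexpression-labelled replicate 1 or replicate 2 it was no longer called (log2 fold changes of -0.41 and -0.43, limma adjusted p = 0.0623 and 0.0644). With all libraries its call was also narrowly lost under quantile normalization, with FPKM on the reads outside MT and with limma's voom method on reads. The log2 fold changes were then -0.39, -0.36 and -0.38 (limma adjusted p = 0.051, 0.054 and 0.0505). MT-TV, the tRNA between the rRNAs, had only 4, 5 and 6 against 9, 9 and 12 reads (log2 fold change -0.94, limma adjusted p = 0.00103). On the deposited scale the plus-strand tRNAs that fell thus lie next to the rRNAs, which fell too. MT-TF, upstream of MT-RNR1, was called higher, but on 2, 6 and 2 against 1, 1 and 0 reads.

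MT-TH, between MT-ND4 and MT-TS2, had 139, 108 and 108 against 32, 31 and 26 reads. It was 3.72-fold higher with no overlap (log2 fold change 1.85, SE 0.133, limma adjusted p = 1.96e-05), although MT-ND4, which it follows without a base between, was not called. MT-TS2, a serine tRNA next to it, had 33, 44 and 24 against 8, 14 and 6 reads (log2 fold change 1.68, limma adjusted p = 0.00242). MT-TR, for arginine, had 41, 53 and 80 against 32, 25 and 15 reads (log2 fold change 1.14, limma adjusted p = 0.0164).
The remaining tRNAs called higher (MT-TG, MT-TT, MT-TL2, MT-TI, MT-TE, MT-TD, MT-TS1 and MT-TF) had 0 to 55 reads per library and log2 fold changes of 0.63 to 2.61 with limma adjusted p of 0.0138 to 0.0307. MT-TE, for example, had 19, 7 and 19 against 0, 8 and 0 reads, so that its groups overlapped. Leaving out 1 library ended the call of 8 of these tRNAs, MT-TR included, in at least 1 case each, while MT-TH, MT-TS2 and MT-TL2 stayed called. Without overexpression-labelled replicate 2 the tRNAs that rose numbered 7, and without replicate 3 they numbered 6. MT-TA, MT-TK, MT-TM and MT-TQ, with at most 12 reads in any library, were not called.

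By strand, 9 of 13 plus-strand tRNAs tested rose and 2 fell, with a median log2 fold change of 1.14. On the minus strand 2 of 8 rose and 4 fell, with a median of -0.46. All tested genes gave 37.5% higher and 39.3% lower. Strand went with abundance here: the 4 minus-strand tRNAs that fell were abundant. The 2 that rose, MT-TE and MT-TS1, had at most 19 reads in any library, and MT-TL1, abundant on the plus strand, fell. Summed reads of plus-strand tRNAs were 501, 511 and 581 against 339, 365 and 373. Summed reads of minus-strand tRNAs were 4384, 3875 and 3988 against 5640, 5704 and 5804. The difference between the strands was not tested. All minus-strand genes, MT-ND6 included, gave 0.1105, 0.104 and 0.1047% against 0.101, 0.1089 and 0.1017% of all reads, which overlapped. Whether the counting used strand is not given in the sources used here, so antisense reads cannot be told from sense reads. MT-TS1, which lies antisense to the transcript downstream of MT-CO1, had only 4, 7 and 11 against 3, 0 and 1 reads.

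**Figure D5:**
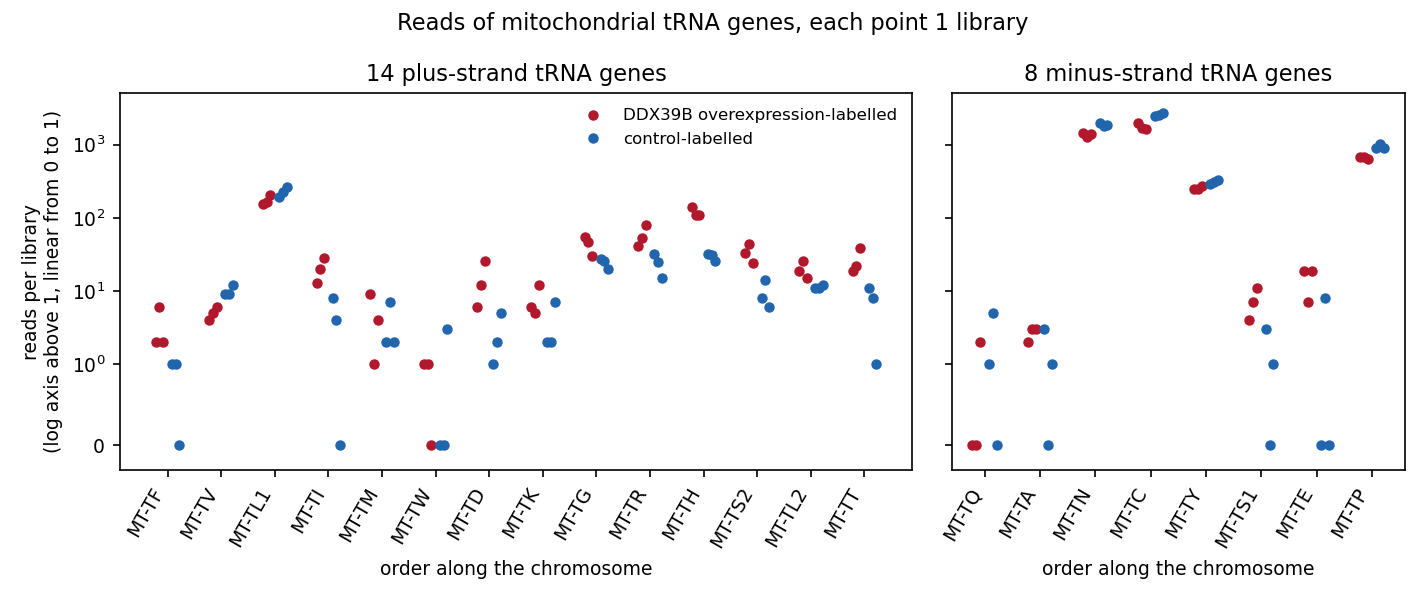
Reads per library of the 14 plus-strand and 8 minus-strand tRNA genes in chromosome order, on an axis that is linear from 0 to 1 and logarithmic above. Of the abundant genes, MT-TN, MT-TC, MT-TY and MT-TP have fewer reads in every overexpression-labelled library than in any control-labelled library, while the reads of MT-TL1 overlap. MT-TH, the most abundant of the tRNAs that rose, has more reads in every overexpression-labelled library than in any control-labelled library.

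Relative to the mitochondrial mRNA total, 4 tRNAs were higher (MT-TH, MT-TS2, MT-TE and MT-TS1), 6 were lower and 11 were not called. On that scale 19.4% of all tested genes were called higher and 57.8% lower, so these counts do not set the tRNAs apart. The lower ones were the same 6 as on the FPKM scale, with log2 fold changes from -0.94 for MT-TY to -1.43 for MT-TV. MT-TH stayed higher by 1.29 on the log2 scale (limma adjusted p = 6.85e-05). The set of higher tRNAs changed whichever of the 6 libraries was left out: MT-TE and MT-TS1 were each lost in 4 of the 6 cases, and the number called ranged from 2 without overexpression-labelled replicate 3 to 6 without control-labelled replicate 1.

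Near-identical copies of mitochondrial DNA in the nuclear genome can share its reads. The table named 394 such pseudogenes, and 3 of them, all on chromosome 1, held 98.8% of their reads. MTATP6P1 (1:633696-634376 on GRCh38) differs from MT-ATP6 at 10 of 681 bases (98.5% identity) and stood at 300, 306 and 317 against 217, 256 and 144 FPKM (log2 fold change 0.62, limma adjusted p = 0.0253), the same direction as MT-ATP6. Its reads were 4.397, 4.809 and 4.856% of those of MT-ATP6 in the overexpression-labelled libraries against 7.538, 7.087 and 5.703% in the others, without overlap. MTND2P28 (1:629640-630683, 98.4% identity to MT-ND2) stood at 203, 177 and 193 against 115, 110 and 106 FPKM (log2 fold change 0.78, limma adjusted p = 4.64e-05). Its reads were 6.253, 5.655 and 6.06% of those of MT-ND2 under the overexpression label and 6.547, 5.591 and 6.276% under the control label, with overlap. MTCO1P12 (1:631074-632616, 98.7% identity to MT-CO1) behaved differently from its parent: it stood at 23.4, 22.3 and 21.4 against 66, 79.9 and 58.3 FPKM, 3.04-fold lower (log2 fold change -1.55, limma adjusted p = 2.19e-05), while MT-CO1 was not called. How reads that match both copies were assigned is not given in the sources used here, so these levels and those of the parents are uncertain. The reads counted for the pseudogenes do not bound that uncertainty, since reads that match both copies may have been left out or divided.

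The nuclear genes that express this genome were listed in 10 groups, of which 122 genes were tested. They gave 38 higher, 52 lower and 32 not called, while 37.5% of all tested genes were called higher and 39.3% lower. As a whole they thus differed about as often as other genes. Their median log2 fold change was -0.088 beside -0.029 over all genes tested. Of the 7 genes of mitochondrial transcription, 2 rose and 3 fell. POLRMT, the mitochondrial RNA polymerase, stood at 13.1, 13.8 and 14.5 against 24.7, 23 and 21 FPKM (log2 fold change -0.69, limma adjusted p = 0.000145). TFB2M, which opens the promoter, was 1.54-fold lower (log2 fold change -0.59), and the elongation factor TEFM was 1.4-fold higher (0.37). The polymerase transcript was thus lower in the libraries in which the mitochondrial mRNA share was higher.

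Nuclear regulators of mitochondrial genes gave 1 higher and 7 lower of 8, with a median log2 fold change of -0.84. The list is small, and 39.3% of all tested genes were called lower and 37.5% higher. PPARGC1A, the coactivator PGC-1alpha, had 0 reads in all 3 overexpression-labelled libraries, against 4.12, 3.1 and 3.8 FPKM under the control label, which is at least 713-fold lower if 3 reads over the whole group are taken as the floor. PPRC1, a related coactivator, was 2.71-fold lower (log2 fold change -1.36), PPARGC1B 3.86-fold lower (-1.11) and GABPB1, a subunit of NRF-2, 3-fold lower (-1.30). Of 16 genes of mitochondrial DNA replication and maintenance, 6 rose, among them PRIMPOL (1.29) and MGME1 (1.06), and 6 fell, among them the nuclease DNA2 (-1.55).

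RNA processing genes gave 5 higher and 1 lower of 7 tested (all tested genes: 37.5% higher and 39.3% lower). ELAC2, which cuts the 3′ ends of the tRNAs, stood at 19.3, 18.5 and 20.3 against 14.4, 15.7 and 12.1 FPKM (log2 fold change 0.44, limma adjusted p = 0.00462), and FASTKD5, needed for mRNA ends that no tRNA marks, was 1.75-fold higher (0.73). TRMT10C, a subunit of RNase P that acts at the 5′ ends, was 1.5-fold lower (-0.55). Genes of RNA stability and polyadenylation gave 3 higher and 5 lower of 8. LRPPRC, which with SLIRP keeps mitochondrial mRNAs stable, stood at 24.4, 23.5 and 23.9 against 46.7, 45.2 and 46.1 FPKM (log2 fold change -0.92, limma adjusted p = 2.98e-06), while the mRNAs themselves were higher or not called. The poly(A) polymerase MTPAP was 1.78-fold lower (-0.66) and PDE12, which removes the tails, 2.32-fold higher (1.02). Of 5 decay genes 1 rose and 3 fell, with the helicase SUPV3L1 2.4-fold lower (-1.15) and its partner PNPT1 1.51-fold lower (-0.55).

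Genes of rRNA modification and ribosome assembly gave 8 higher and 10 lower of 24 (all tested genes: 37.5% higher and 39.3% lower). The members with the largest changes were higher, opposite to the rRNAs: MRM1, a methyltransferase of MT-RNR2, stood at 16.6, 15.8 and 15.9 against 3.5, 4.66 and 2.22 FPKM (log2 fold change 1.97, limma adjusted p = 8.99e-05). MRM3, a methyltransferase of the same rRNA, was 2.2-fold higher (1.02), RCC1L 1.99-fold (0.96) and TFB1M, which methylates MT-RNR1, 2.03-fold (0.77). Of 18 tRNA modification genes 2 rose and 8 fell, among them NSUN2, an RNA methyltransferase, 2.37-fold lower (-1.21), and TRIT1, which modifies the anticodon loop, 1.58-fold lower (-0.55). Of 20 mitochondrial aminoacyl-tRNA synthetases 8 rose and 7 fell, with WARS2, for tryptophan, 4.48-fold lower (-1.78) and RARS2, for arginine, 2.18-fold higher (1.02). Translation factors gave 3 higher and 3 lower of 11, with the initiation factor MTIF3 2.29-fold higher (1.11) and the recycling factor MRRF 1.77-fold lower (-0.70).

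The nuclear partners of the encoded subunits were also divided, as were all tested genes (37.5% called higher and 39.3% lower). Complex I gave 13 higher and 11 lower of 35, complex III 4 and 4 of 9, complex IV 4 and 6 of 11, and complex V 7 and 7 of 16. In complex III, UQCRH stood at 70.8, 76.7 and 69.7 against 188, 187 and 195 FPKM (log2 fold change -1.38, limma adjusted p = 1.13e-06), UQCRC2, a core subunit, was 2.42-fold lower (-1.23) and CYC1, cytochrome c1, 1.98-fold lower (-0.97). These are partners of MT-CYB, which was 3.31-fold higher, and were named for the size of their change. The 9 partners tested, of which 4 were higher, had a median log2 fold change of 0.13. In complex I, NDUFA12 was 2.8-fold higher (1.45) and NDUFS4 2.82-fold lower (-1.42). In complex IV, COX4I1 was 1.57-fold lower (-0.64) and COX6B1 1.63-fold higher (0.70). In complex V, ATP5MF was 1.97-fold higher (0.96) and ATP5F1A, the alpha subunit, 1.69-fold lower (-0.72).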

How the data were processed

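The authors deposited 1 table that lists gene length and, for each library, FPKM, a unit taken from its name and values. Neither aligner nor counter is named in the sources used here. The build in the submitters' processing notes is mm10, of the mouse, but all 58735 gene identifiers were human and were found in GENCODE release 29 (GRCh38). There were 0 further value columns. Samples were grouped by their titles, 3 libraries per group.

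FPKM times gene length, in units of the smallest product above 0, gave whole reads within 0.001 read for 100% of values. The FPKM denominator was 1.04 to 1.05 times the sum of reads in the overexpression-labelled and 0.958 to 0.995 times in the control-labelled libraries, so the deposited values carry a further scaling factor. Reads differed between libraries by more than sampling noise (chi-square per gene 2.19 to 2.56 within the overexpression-labelled and 8.08 to 36.9 within the control-labelled group), so all 6 were kept as separate libraries.

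Differences were tested with limma 3.58.1 in R 4.3.3, applied two-sided to log2(FPKM + 1) with a variance trend and no term besides group. Genes entered at a mean FPKM of 1 or more, and p-values were adjusted over all of them by the Benjamini-Hochberg method (threshold 0.05). Low values change less on this log2 scale than in ratio, and folds are ratios of mean FPKM. The steps were tested on simulated reads, in which few genes changed and all libraries had the same spread. Genes with few reads and the further scaling factor were left out of that simulation. It therefore does not cover the rarer tRNAs or the wider spread of the control-labelled libraries. Positions and sequences were matched to GENCODE transcripts for all 37 genes. Python 3.11.15 and pandas 2.3.3 made the other tables. The members and the gene lists were chosen with earlier results of these data known. All mitochondrial genes, DDX39B, the pseudogenes with most reads, the markers and up to 4 called genes of each nuclear list by size of change could be named. Alternatives changed the pseudocount, filter, scaling, variance model, replicate block and libraries included, and added the pseudogene reads to their parents. Intervals and floors cover counting or library error only, and reads are not independent molecules.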

Additional observations from a re-analysis of the deposited data

How the results depend on the processing

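Both rRNAs were lower under every setting run on either scale. On the deposited scale, 6 of 8 mRNA calls (MT-ND2, MT-ATP8, MT-ATP6, MT-CO3, MT-ND3 and MT-CYB) and 6 of 17 tRNA calls were kept in every setting, and relative to the mitochondrial mRNA total 3 of 12 (MT-ATP8, MT-ND3 and MT-CYB) and 8 of 10. The mRNAs called higher numbered 13 with array weights, whose estimation stopped before convergence, and those called lower 4 with quantile normalization, under which MT-ND1 (-0.22), MT-CO1 (-0.43), MT-ND4L (-0.32) and MT-ND4 (-0.38) turned to lower. Array weights raised the calls over all genes too, to 12517 of 13972 (6059 higher and 6458 lower) from 10726. Without a filter on low values MT-ND1 and MT-CO2 lost their calls (adjusted p = 0.093 and 0.117 by limma). Of the tRNAs, 6 were called higher without a filter and 7 with a filter of a mean of 10 reads, and the nuclear genes of mitochondrial gene expression called higher numbered 25 with a filter of 5 FPKM, which tests fewer genes. Relative to the mitochondrial mRNA total and without a filter, 3 mRNAs were higher and 0 lower and 2 tRNAs were higher, and MT-TA turned to lower with array weights (-0.63). Leaving out each library in turn gave 8 to 12 mRNAs and 6 to 10 tRNAs called higher, and 2 to 6 tRNAs relative to the mRNA total. The difference in mitochondrial share of reads, 1.51 percentage points, ranged from 1.34 to 1.72. Where not stated, the cause was not tested.

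Replicate numbers did not pair the libraries (correlations of same-numbered libraries of -0.00592, -0.0217 and 0.00746). With the replicate number as a block, all calls numbered 10506 in place of 10726, mRNAs and rRNAs on the deposited scale gave the same counts, and tRNAs called higher numbered 10 in place of 11. Relative to the mRNA total, the block left 5 mRNAs higher and 5 lower in place of 6 and 6 (MT-ND2 and MT-ND1 lost their calls), and 9 tRNAs higher in place of 4. Depth limits the tRNAs, most of which had under 100 reads per library.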
